A study of Mus musculus with 72 samples.

Results

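The 9 enzymes measured here carry squalene to cholesterol, and they were followed over the day in the liver of mice without a working *Scp2* gene (KO) and of wild type mice (WT). *Scp2* encodes sterol carrier protein 2, a lipid transfer protein. The same locus also encodes SCPx, a peroxisomal thiolase. According to the paper the KO lacks the whole locus, so the loss of either protein cannot be told apart here. The members, in pathway order, were *Sqle*, *Lss*, *Cyp51*, *Msmo1*, *Nsdhl*, *Hsd17b7*, *Ebp*, *Sc5d* and *Dhcr7*. They were chosen by gene symbol or older alias, and 13 of the 23978 probes with 1 gene name, for 9 of 16593 genes, matched. KO mice had been backcrossed into C57Bl/6, WT mice were C57Bl/6J, both came from the same supplier, and no littermate controls are named in the sources used here. Males aged 10 to 12 weeks were fed only in the dark phase for 4 days and killed every 2 h around a light-dark cycle, from ZT0 (Zeitgeber time, lights on) through ZT12 (lights off) to ZT22. Each genotype had 36 Illumina arrays of total liver RNA, with 3 independent animals at each of 12 times.

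Squalene is the last open chain of the pathway. Squalene epoxidase and lanosterol synthase turn it into the first sterol, and the enzymes that follow strip methyl groups from the ring system and move its double bonds until cholesterol remains. When sterols in the endoplasmic reticulum run low, the factor SREBP-2 is released and switches on most of these genes together, and in rodent liver the pathway also follows feeding and the clock.

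The arrays matched their genotypes. A probe of *Scp2* read a median of 5.99 in KO and 12.95 in WT on the log2 scale, another read 5.89 in KO and 12.23 in WT, the next read 10.30 in KO and 11.74 in WT, and the fourth lay near background in both. Median raw signals per array spanned 95.5 to 114 in KO and 96.1 to 114 in WT, and the number of arrays limits the precision. The column headings give 3 array sets of 12 arrays per genotype, numbered 4, 5 and 6 in KO and 6, 9 and 10 in WT, and what a set stands for is not given. The WT array of set 6 at ZT12 stood apart, with a median rank correlation of 0.931 to the other arrays, so counts are also given without it. The next lowest value was 0.951, for the KO array of set 6 at ZT16, which was not left out on its own. Among hepatocyte markers *Ttr*, *Apoa1*, *Serpina1a* and *Cps1* lay above the 99th percentile of genes, whereas the probe of *Tat* lay at percentile 1.15 and that of *Alb* at percentile 57.1.

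All 9 enzymes were higher in KO than in WT over all times, by 0.23 to 1.54 on the log2 scale (limma, adjusted p under 0.05, 36 arrays each). Over all genes, 5.93% passed this test upwards and 6.38% downwards. Read by probe, 13 of 13 probes were higher, against 5.24% of all probes. The median difference of the 9 was 1.04, against a median of -0.00028 over all genes. Reading along the pathway, the rise was about a doubling or more for the 6 enzymes from *Sqle* to *Hsd17b7*, small for *Ebp* and *Sc5d*, and intermediate for *Dhcr7*. In bulk tissue a change in the number of cells of a type and a change in RNA per cell cannot be told apart. Differences are on a scale with an offset of 50 signal units, which understates the change of dim genes. The number 6 occurs among the sets of both genotypes, and whether it stands for the same batch in both is not given. Between KO set 6 and WT set 6 the differences ran in the same direction for 9 of 9 members. The lowest was 0.16 for *Ebp* and the highest 1.60 for *Msmo1*.

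**Figure D1:**
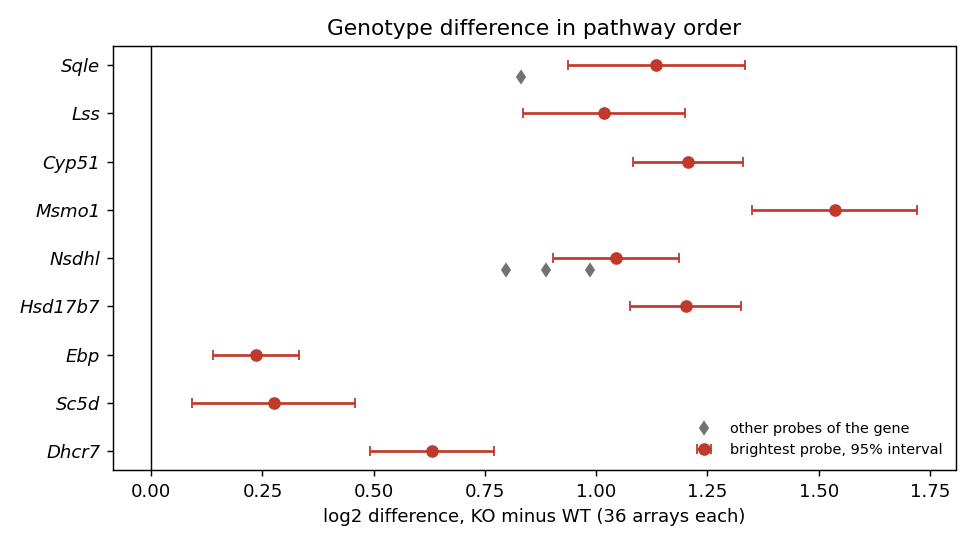
Log2 difference between KO and WT (x axis) for each enzyme in pathway order (y axis), with red points for the brightest probe, bars for its 95% interval and grey diamonds for the other probes of the gene. The 6 enzymes from *Sqle* to *Hsd17b7* lie between 1.02 and 1.54, and *Ebp* and *Sc5d* at 0.23 and 0.28.

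*Sqle* (squalene epoxidase, probe ILMN_2737163, chromosome 15) makes the first oxygenated intermediate and is a known control point of the pathway. Its log2 signal had a lowest, median and highest value of 9.16, 9.98 and 10.65 in KO, against 7.76, 8.81 and 10.07 in WT. The ranges overlapped, since 15 of the 36 KO arrays lay above the highest WT array. The difference was 1.13 (SE 0.10, limma adjusted p = 1.76e-15), a 2.20-fold higher signal in KO (95% interval 1.91 to 2.52). A second, dimmer probe averaged 7.84 ± 0.32 in KO and 7.01 ± 0.35 in WT (SD, n = 36 each).

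*Lss* (lanosterol synthase, probe ILMN_2614161, chromosome 10) closes the sterol rings. It read 8.29, 8.90 and 9.69 (lowest, median, highest) in KO, against 7.34, 7.75 and 9.09 in WT. Of the WT arrays, 30 of 36 lay below the lowest KO array. The difference was 1.02 (SE 0.092, limma adjusted p = 4.95e-15), or 2.02-fold.

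*Cyp51* (lanosterol demethylase, probe ILMN_2688075, chromosome 5) is the cytochrome P450 of the pathway. It read 9.11, 9.58 and 9.98 in KO, against 7.86, 8.32 and 9.28 in WT. The genotypes came close to separation, with 32 of 36 KO arrays above every WT array. The difference was 1.21 (SE 0.062, limma adjusted p = 1.64e-27), or 2.31-fold.

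*Msmo1* (methylsterol monooxygenase, probe ILMN_2823778, chromosome 8) starts the removal of the remaining methyl groups, and its difference was the largest of the 9. It read 10.87, 11.42 and 12.10 in KO, against 8.83, 9.94 and 11.06 in WT. All but a pair of KO arrays (34 of 36) exceeded the highest WT array. The difference was 1.54 (SE 0.093, limma adjusted p = 1.66e-23), or 2.90-fold (95% interval 2.55 to 3.30).

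*Nsdhl* (sterol dehydrogenase, probe ILMN_2594525, chromosome X) removes the oxidised carbon as carbon dioxide. It read 7.84, 8.26 and 9.18 in KO, against 6.35, 7.25 and 8.24 in WT. In WT, 35 of 36 arrays lay below the lowest KO array. The difference was 1.04 (SE 0.071, limma adjusted p = 7.41e-21), or 2.06-fold, and the other 3 probes of the gene differed by 0.80, 0.89 and 0.99.

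*Hsd17b7* (probe ILMN_1229529, chromosome 1) reduces the ketone that this demethylation leaves. It read 10.57, 10.97 and 11.64 in KO, against 9.25, 9.78 and 10.54 in WT. Here the genotypes did not overlap at all: 36 of 36 KO arrays lay above 36 of 36 WT arrays, as for 11 of 16593 genes (0.0663%). The difference was 1.20 (SE 0.063, limma adjusted p = 4.51e-27), or 2.30-fold.

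*Ebp* (sterol isomerase, probe ILMN_2707043, chromosome X) shifts a ring double bond. It read 9.96, 10.74 and 11.20 in KO, against 10.06, 10.47 and 10.72 in WT. The ranges overlapped, and the lowest value of all 72 arrays was a KO array. The difference was 0.23 (SE 0.049, limma adjusted p = 0.000156), or 1.18-fold.

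*Sc5d* (sterol desaturase, probe ILMN_1225039, chromosome 9) adds the next double bond. It read 6.79, 7.68 and 8.41 in KO, against 6.52, 7.34 and 8.19 in WT. The ranges were nearly the same, and 2 of 36 KO arrays lay above the highest WT array. The difference was 0.28 (SE 0.092, limma adjusted p = 0.0328), or 1.21-fold. This call was lost in 7 of 16 alternatives (adjusted p from 1.86e-05 to 0.133), among them without the WT array of set 6 at ZT12 (0.0528), and without KO set 4 (0.117), KO set 5 (0.108), WT set 6 (0.0973) or WT set 10 (0.133).

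*Dhcr7* (probe ILMN_2660471, chromosome 7) makes cholesterol in the last reduction of this branch. It read 7.47, 7.89 and 8.39 in KO, against 6.67, 7.32 and 8.42 in WT. Although 29 of 36 WT arrays lay below the lowest KO array, the single highest value was a WT array. The difference was 0.63 (SE 0.070, limma adjusted p = 2.09e-11), or 1.55-fold.

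Promoter windows of RefSeq (GRCm38.p6, 250 bases before to 50 after the start) were held for 8 members, all but *Sqle*. Both strands were searched for TCACNNCAC, a loose form of the sterol regulatory element, for its stricter form TCACNCCAC, of which every match is also a match of the loose form, for CCAAT, for the E-box CACGTG and for GGGCGG, the core of a GC box. TCACNNCAC lay in windows of *Msmo1*, *Hsd17b7* and *Dhcr7* and in 3.77% of 32851 windows of the same length, and TCACNCCAC in none of the members and in 1.24% of windows. CCAAT and GGGCGG each lay in windows of 8 of 8 members, against 37.4% and 35.7% of all windows, where *Dhcr7* was read over 3 windows and each other member over 1. CACGTG lay in windows of *Hsd17b7*, *Sc5d* and *Dhcr7* and in 7.15% of all windows. The loose element and CCAAT shared a window in *Msmo1* and *Hsd17b7* (1.43% of all windows). The 250 bases before the start are shown for these, whose signals differed strongly between genotypes, and for *Ebp* and *Sc5d*, whose signals differed little. The loose element was absent from the windows of *Lss*, *Cyp51* and *Nsdhl*, whose differences were 1.02, 1.21 and 1.04. It was present for *Dhcr7*, whose difference was 0.63. A link between motifs and the size of the difference was not tested. Capitals mark the loose element, the E-box and CCAAT, which reads ATTGG where it lies on the other strand.
Msmo1 (chr8:64733579-64733828, minus strand): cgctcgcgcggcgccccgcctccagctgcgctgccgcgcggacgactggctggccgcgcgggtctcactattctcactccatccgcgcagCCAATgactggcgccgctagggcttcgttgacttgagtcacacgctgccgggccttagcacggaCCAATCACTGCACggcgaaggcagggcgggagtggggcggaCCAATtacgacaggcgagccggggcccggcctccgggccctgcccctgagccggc
Hsd17b7 (chr1:169969206-169969455, minus strand): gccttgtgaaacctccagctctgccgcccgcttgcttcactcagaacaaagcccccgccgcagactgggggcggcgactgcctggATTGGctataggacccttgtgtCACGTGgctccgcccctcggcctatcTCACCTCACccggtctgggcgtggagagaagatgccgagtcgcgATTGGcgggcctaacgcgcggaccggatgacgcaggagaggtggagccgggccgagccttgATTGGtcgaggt
Ebp (chrX:8193513-8193762, minus strand): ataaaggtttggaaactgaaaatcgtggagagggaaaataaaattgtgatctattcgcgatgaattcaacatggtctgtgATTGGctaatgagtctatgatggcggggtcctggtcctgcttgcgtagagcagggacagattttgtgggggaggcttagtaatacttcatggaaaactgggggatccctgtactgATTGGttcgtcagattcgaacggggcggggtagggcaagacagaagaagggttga
Sc5d (chr9:42264301-42264550, minus strand): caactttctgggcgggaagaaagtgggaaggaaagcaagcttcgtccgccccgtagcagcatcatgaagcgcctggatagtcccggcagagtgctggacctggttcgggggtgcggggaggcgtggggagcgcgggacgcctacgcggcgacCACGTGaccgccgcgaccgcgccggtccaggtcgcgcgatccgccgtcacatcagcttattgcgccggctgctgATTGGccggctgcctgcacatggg
In *Msmo1* a CCAAT at -96 from the start runs into the element TCACTGCAC at -92, with which it shares 1 base, and others lie at -160 and -55. In *Hsd17b7* the element TCACCTCAC lies at -117, CACGTG at -143, and CCAAT on the other strand at -165, -73 and -12. In *Ebp* CCAAT lies on the other strand at -170 and -55, and in *Sc5d* at -24, with CACGTG at -98. A match describes the letters alone, and binding was not measured.

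At single times, 62 of the 108 comparisons of a member between 3 KO and 3 WT arrays passed the test upwards and 0 downwards (limma, adjusted over all genes within each time). The background is low, since 0.505% of all comparisons of a gene at a time passed upwards. By time, this background ran between 0.301% (ZT10) and 0.976% (ZT12). In 107 of the 108 the KO mean was higher, with *Sc5d* at ZT22 the exception, so that 8 of 9 members had a higher KO mean at 12 of 12 times, against 2.99% of all genes. In 84 of the 108 all KO arrays lay above all WT arrays, against 6.61% of all comparisons of a gene at a time. *Cyp51* and *Hsd17b7* passed at 12 of 12 times, *Nsdhl* at 11, *Msmo1* at 10, *Lss* at 9, *Sqle* at 5, *Dhcr7* at 3, and *Ebp* and *Sc5d* at 0. Without KO set 4 the count fell to 37, and without the WT array that stood apart it was 61.

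**Figure D2:**
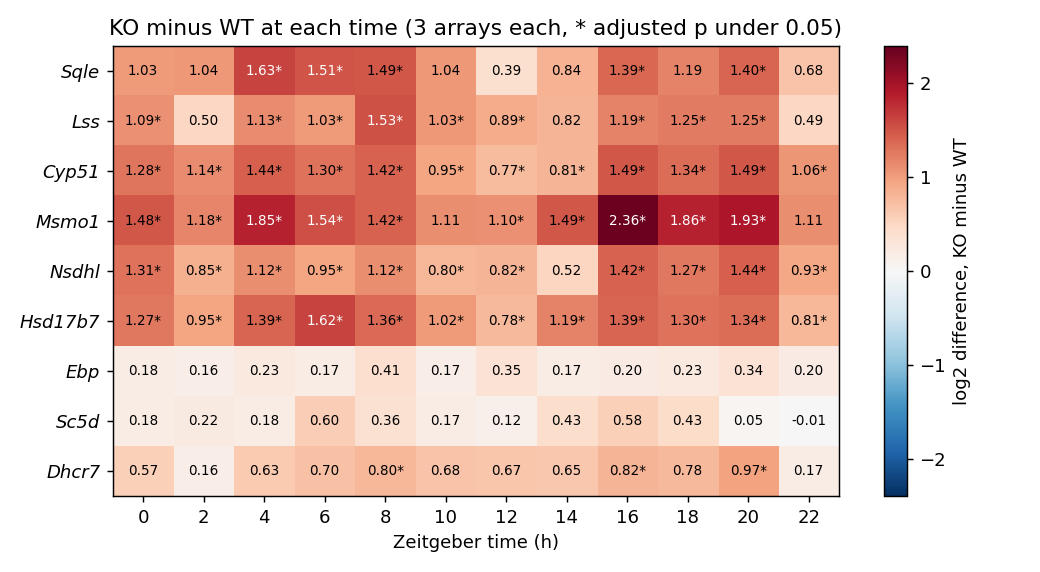
Log2 difference between KO and WT for each enzyme (rows, in pathway order) at each Zeitgeber time (columns, h), from 3 arrays per genotype, with a star where limma's adjusted p was under 0.05. Red means higher in KO, and the deepest cell is *Msmo1* at ZT16 (2.36), whereas *Ebp* and *Sc5d* hold no star.

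The largest difference of any member at a single time was that of *Msmo1* at ZT16. Its log2 signals there were 11.44, 10.87 and 12.10 in KO, against 9.31, 9.19 and 8.83 in WT, a difference of 2.36 (SE 0.29, limma adjusted p = 1.75e-07). The 12.10 came from the KO array of set 6, whose rank correlation to the other arrays was low (0.951). Before normalization its signal was 3121, below the 3219 of the KO array of set 4, which read 11.44. That array of set 6 was the highest KO array for 3 members (*Msmo1*, *Nsdhl* and *Sc5d*), and the difference without it was not computed. WT was at its lowest mean of the day at that time (9.11), while the KO means stayed between 11.17 and 11.59 at all times. The smallest difference of *Msmo1*, at ZT12, was 1.10, and its 3 KO arrays still lay above its 3 WT arrays at 12 of 12 times.

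*Hsd17b7* differed most at ZT6, with 11.24, 11.09 and 11.64 in KO, against 10.001, 9.64 and 9.47 in WT (difference 1.62, SE 0.21, limma adjusted p = 7.80e-07). At ZT12 the values were 10.83, 10.83 and 10.89 in KO, against 10.43, 9.89 and 9.90 in WT. The difference there was 0.78, its smallest of the day, and the highest WT value is from the array that stood apart.

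*Cyp51* differed most at ZT20, with 9.52, 9.37 and 9.66 in KO, against 8.26, 7.89 and 7.92 in WT (difference 1.49, limma adjusted p = 6.33e-07), and least at ZT12 (0.77). *Nsdhl* also differed most at ZT20, with 8.18, 7.89 and 8.10 in KO, against 6.35, 6.63 and 6.86 in WT (difference 1.44, limma adjusted p = 1.85e-06). Both had their lowest WT mean of the day at ZT20. At ZT14 *Nsdhl* read 7.84, 8.10 and 8.17 in KO, against 7.58, 7.47 and 7.49 in WT, without overlap but short of the threshold (difference 0.52, limma adjusted p = 0.291).

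*Sqle* varied more between animals of WT. At ZT4 it read 9.79, 10.06 and 9.91 in KO, against 8.83, 8.28 and 7.76 in WT (difference 1.63, SE 0.32, limma adjusted p = 0.00218). At ZT12 it read 9.32, 9.23 and 9.46 in KO, against 10.07, 8.44 and 8.34 in WT, with the first WT value from the array that stood apart. The difference at ZT12 was 0.39 with that array and 0.95 without it, and without it the 3 KO arrays lay above the other WT arrays.

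*Lss* differed most at ZT8, with 8.87, 8.92 and 9.24 in KO, against 7.64, 7.34 and 7.47 in WT (difference 1.53, limma adjusted p = 3.92e-05). At ZT22 it read 8.97, 9.15 and 8.58 in KO, against 7.74, 8.62 and 8.87 in WT. The genotypes overlapped there (difference 0.49, limma adjusted p = 0.848), at the time of the highest WT mean.

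*Dhcr7* differed most at ZT20, with 8.20, 8.36 and 8.003 in KO, against 7.29, 6.78 and 7.59 in WT (difference 0.97, limma adjusted p = 0.00571). At ZT2 it read 8.05, 8.09 and 7.62 in KO, against 7.56, 8.42 and 7.33 in WT, and the genotypes overlapped (difference 0.16). The high WT value at ZT2 comes from the array of set 9, which was the highest of 36 WT arrays for 6 of the 9 members (*Lss*, *Cyp51*, *Msmo1*, *Nsdhl*, *Hsd17b7* and *Dhcr7*).

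*Ebp* and *Sc5d* passed at no single time in limma, where the lowest unadjusted p was 0.0231 for *Ebp* and 0.000862 for *Sc5d*. *Ebp* differed most at ZT8, with 10.50, 10.84 and 11.17 in KO, against 10.47, 10.46 and 10.35 in WT (difference 0.41, limma adjusted p = 0.458). *Sc5d* differed most at ZT6, with 7.64, 7.99 and 7.62 in KO, against 7.33, 6.96 and 7.17 in WT (difference 0.60, limma adjusted p = 0.0837). At ZT22 *Sc5d* read 8.03, 8.01 and 7.69 in KO, against 7.85, 8.19 and 7.73 in WT, with full overlap.

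**Figure D3:**
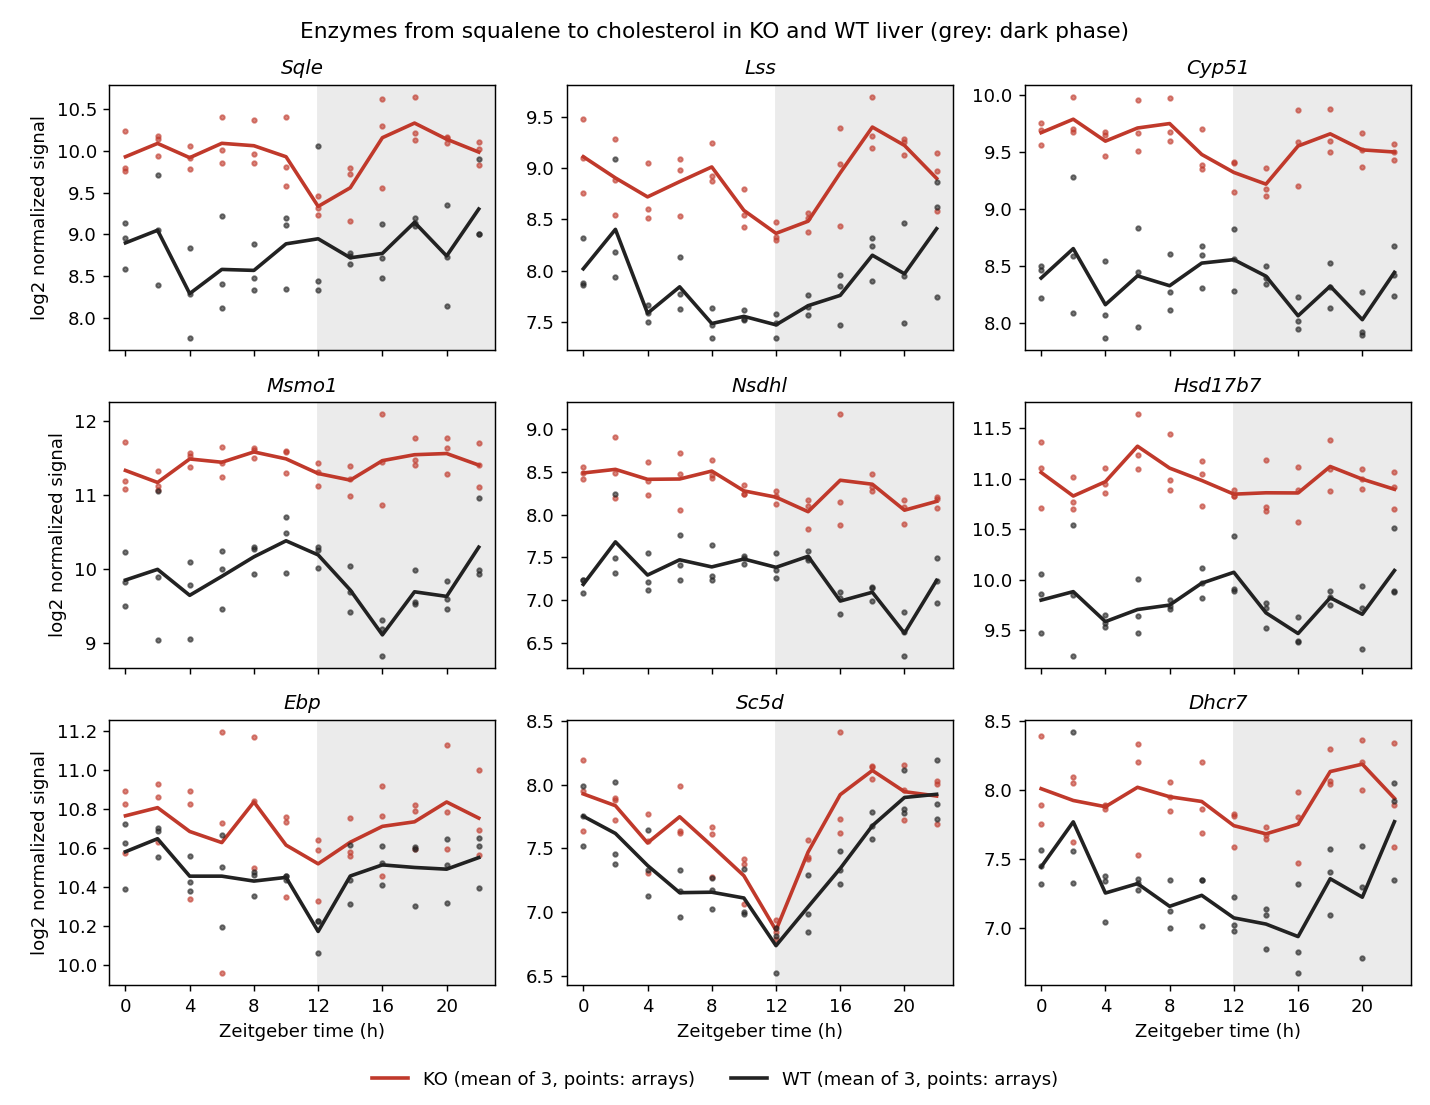
Log2 normalized signal (y axis) against Zeitgeber time (x axis, h) for the 9 enzymes, with KO in red and WT in black, points for single arrays and lines through the means of 3. The KO line lies above every WT mean of the day for 5 enzymes (*Sqle*, *Cyp51*, *Msmo1*, *Nsdhl* and *Hsd17b7*), and *Sc5d* dips at ZT12 in both genotypes.

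For 5 of the 9 enzymes the lowest KO mean of the day lay above the highest WT mean. The gap was 0.79 for *Msmo1*, 0.74 for *Hsd17b7*, 0.57 for *Cyp51*, 0.35 for *Nsdhl* and 0.031 for *Sqle*. Whether the genotype difference itself varied with time was tested with the interaction of genotype and 12 times. No member passed (limma F-test, 0 of 9, adjusted p = 0.99998 for each), with 1 member at an unadjusted p under 0.05 (*Nsdhl*, 0.038), and 0.0241% of all genes passed. With 3 arrays per genotype and time this test says little about small changes of the difference.

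A rhythm of 24 h was found for fewer enzymes in KO than in WT, but no rhythm differed between genotypes in the test of the difference itself. In KO 2 of 9 were rhythmic (regression on a cosine and a sine, F-test, adjusted p under 0.05), against 13.7% of all genes. In WT 5 of 9 were, against 15.8% of all genes. The test of the difference in rhythm passed for 0 of 9 members (limma F-test, 0 at an unadjusted p under 0.05, lowest unadjusted p = 0.0999 for *Nsdhl*) and for 0.127% of all genes.

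*Sc5d* had the largest amplitude (the height of the fitted wave above its mean) in both genotypes. The amplitude was 0.38 in KO (SE 0.066, adjusted p = 0.000297) and 0.48 in WT (SE 0.051, adjusted p = 5.04e-08). Its acrophase, the time of the fitted maximum, was ZT21.9 in KO (SE 0.67 h) and ZT22.3 in WT (SE 0.40 h). The lowest mean fell at ZT12 in both, with 6.94, 6.84 and 6.79 in KO, against 6.52, 6.81 and 6.87 in WT, and the highest mean fell at ZT18 in KO (8.11) and at ZT22 in WT (7.92). The cosine took 49.9% of the variance in KO and 73.1% in WT. Fitted set by set, the acrophase spanned 1.82 h in KO and 1.02 h in WT.

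*Lss* peaked at the same part of the night. Its amplitude was 0.27 in KO (acrophase ZT21.9, adjusted p = 0.0417) and 0.38 in WT (acrophase ZT22.4, adjusted p = 0.00161). The KO rhythm was lost without KO set 4 (adjusted p = 0.259) or KO set 5 (0.364) and with median scaling (0.213), and the WT rhythm without WT set 10 (0.0621).

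*Dhcr7* had an amplitude of 0.11 in KO (adjusted p = 0.445) and 0.28 in WT (acrophase ZT0.65, SE 0.93 h, adjusted p = 0.00978). The WT rhythm was lost without WT set 6 (adjusted p = 0.0550) or WT set 9 (0.0962). *Ebp* had an amplitude of 0.086 in KO (adjusted p = 0.673) and 0.11 in WT (acrophase ZT23.4, adjusted p = 0.0489), and the WT call was lost without any 1 of the 3 WT sets (0.113 to 0.259) and without the WT array that stood apart (0.108).

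*Nsdhl* ran in another phase. Its amplitude was 0.14 in KO (adjusted p = 0.303) and 0.27 in WT (adjusted p = 0.0117), with a WT acrophase at ZT7.2 (SE 0.95 h), in the light phase. Across all 4 probes of the gene the WT acrophase lay between ZT4.5 and ZT7.2, with adjusted p from 0.0135 to 0.0455 over all probes. Without WT set 6 (adjusted p = 0.301) or WT set 10 (0.0702) the WT rhythm was lost, and without KO set 6 the KO rhythm passed (0.00299).

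None of the other 4 enzymes passed the test of a 24 h rhythm in either genotype. The amplitude was 0.18 in KO and 0.21 in WT for *Sqle*, 0.16 in KO and 0.10 in WT for *Cyp51*, 0.012 in KO and 0.22 in WT for *Msmo1*, and 0.073 in KO and 0.018 in WT for *Hsd17b7*. *Cyp51* in KO lay next to the threshold (adjusted p = 0.0518) and passed it with the filter on dim probes (adjusted p = 0.0494). When a 12 h wave was added, 4 members passed in KO (*Sqle*, *Lss*, *Cyp51* and *Sc5d*) and 5 in WT (*Lss*, *Msmo1*, *Nsdhl*, *Sc5d* and *Dhcr7*).

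**Figure D4:**
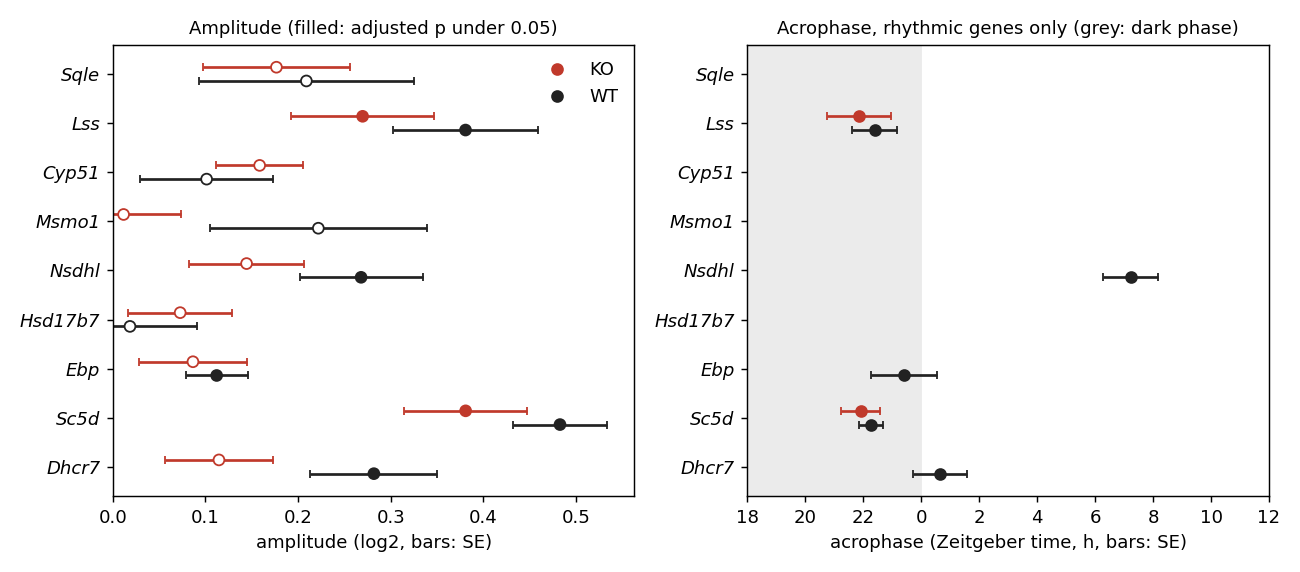
Left, amplitude of the 24 h rhythm (log2, x axis) of each enzyme (y axis, pathway order) in KO (red, upper) and WT (black, lower), with bars for the SE and filled points where the adjusted p was under 0.05. Right, acrophase (Zeitgeber time, h) with its SE for the rhythmic ones, where *Lss*, *Ebp*, *Sc5d* and *Dhcr7* lie between ZT21.9 and ZT0.65 and *Nsdhl* in WT at ZT7.2.

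To see where along the pathway the genotype difference changed in size, the log2 difference of each enzyme was set against that of the next within each array (8 pairs, two-sided permutation test of 100000 resamples within each time, Benjamini-Hochberg over the 8). The largest step lay between *Hsd17b7* and *Ebp*, whose differences were 1.20 and 0.23. The step was 0.97 (95% interval 0.80 to 1.13, p = 1e-05, the smallest these permutations can give, adjusted p = 2.67e-05), in the same direction at 12 of 12 times. From *Msmo1* to *Nsdhl* the difference dropped by 0.49 (95% interval 0.34 to 0.64, adjusted p = 2.67e-05, 12 of 12 times). The probes of a pair can differ in brightness, and the offset shrinks the differences of dim probes. *Hsd17b7* and *Ebp* lay at percentiles 97.0 and 97.4 of genes by mean signal, and *Msmo1* and *Nsdhl* at 97.5 and 85.4. Between probes of *Nsdhl* alone the difference ran from 0.80 to 1.04, and between those of *Sqle* from 0.83 to 1.13, lower for the dimmer probes. What part of a step comes from the probes was not tested.

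Other steps went upwards. *Msmo1* differed more than *Cyp51* (step -0.33 as *Cyp51* minus *Msmo1*, permutation, adjusted p = 4e-05), and *Dhcr7* more than *Sc5d* (step -0.36 as *Sc5d* minus *Dhcr7*, permutation, adjusted p = 2.67e-05). These 4 steps passed in 11 of 11 alternatives. *Cyp51* differed more than *Lss* by a step of -0.19 (adjusted p = 0.0103), lost without KO set 6 (0.0804) or WT set 10 (0.372). *Hsd17b7* differed more than *Nsdhl* by a step of -0.16 (adjusted p = 0.0357), lost without KO set 5 (0.0620), KO set 6 (0.0804), WT set 9 (0.0522) or WT set 10 (0.223).

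The step from *Sqle* to *Lss* was 0.12 (95% interval -0.055 to 0.29, permutation, adjusted p = 0.203) and passed in 3 of 11 alternatives. These were the authors' normalized values (0.16, permutation, adjusted p = 0.0480), leaving out the WT array that stood apart (0.16, adjusted p = 0.0305) and leaving out WT set 6 (0.30, adjusted p = 0.000192). Between *Ebp* and *Sc5d* the step was -0.040 (95% interval -0.18 to 0.10, permutation, adjusted p = 0.566), so that a step of over 0.18 in either direction lay outside the interval.

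Arrays of animals of 1 genotype killed at the same time also differed in these genes. The deviation of each array from the mean of its genotype and time was compared between pathway neighbours (8 pairs in 2 genotypes, 16 tests, two-sided permutation within each time). *Sqle* and *Lss* varied together in KO (Pearson's r = 0.68, permutation p = 0.0004, adjusted 0.0064, Spearman's rho = 0.62, permutation p = 0.00174, adjusted 0.0278, n = 36). Without the 2 arrays farthest from the median of *Sqle* r was 0.61. *Cyp51* and *Msmo1* varied together in WT (r = 0.68, permutation p = 0.00513, adjusted 0.0235, rho = 0.57, permutation p = 0.00529, adjusted 0.0423, and r = 0.48 without the farthest 2). For 3 further pairs in KO (*Lss* with *Cyp51*, *Cyp51* with *Msmo1*, *Msmo1* with *Nsdhl*) r was 0.59, 0.61 and 0.63 and passed, whereas rho was 0.47, 0.50 and 0.41 and did not (adjusted 0.0653, 0.0503 and 0.101), and r without the farthest 2 was 0.44, 0.41 and 0.31. The count of Pearson correlations that passed depended on the scaling, with 13 of 16 after median scaling in place of 5. No pair passed when any 1 KO set was left out. For the WT pair the arrays were the same then, and its adjusted p also depends on the KO pairs, since all 16 tests were adjusted together. Each set holds 1 array per time and so gives no value of its own, and whether a correlation differed between genotypes was not tested.

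The correlations of *Ebp* ranged widely between members. With *Dhcr7* r was 0.72 in KO and 0.20 in WT, with *Lss* 0.58 in KO and 0.28 in WT, and with *Sqle* 0.44 in KO and 0.014 in WT. With *Nsdhl* r was 0.38 in KO and -0.10 in WT, with *Msmo1* 0.29 in KO and -0.18 in WT, and with *Cyp51* 0.25 in KO and -0.10 in WT. With its pathway neighbours r was 0.012 in KO and -0.046 in WT for *Hsd17b7*, and 0.12 in KO and -0.049 in WT for *Sc5d*. Over all 36 pairs of members, given as a description since the pairs share arrays, r had a median of 0.52 in KO (0.0017 to 0.79) and 0.47 in WT (-0.18 to 0.88), with *Lss* and *Dhcr7* the highest pair in both. Pairs of other genes were not computed as a background, so differences between animals and deviations of whole arrays cannot be told apart here.

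**Figure D5:**
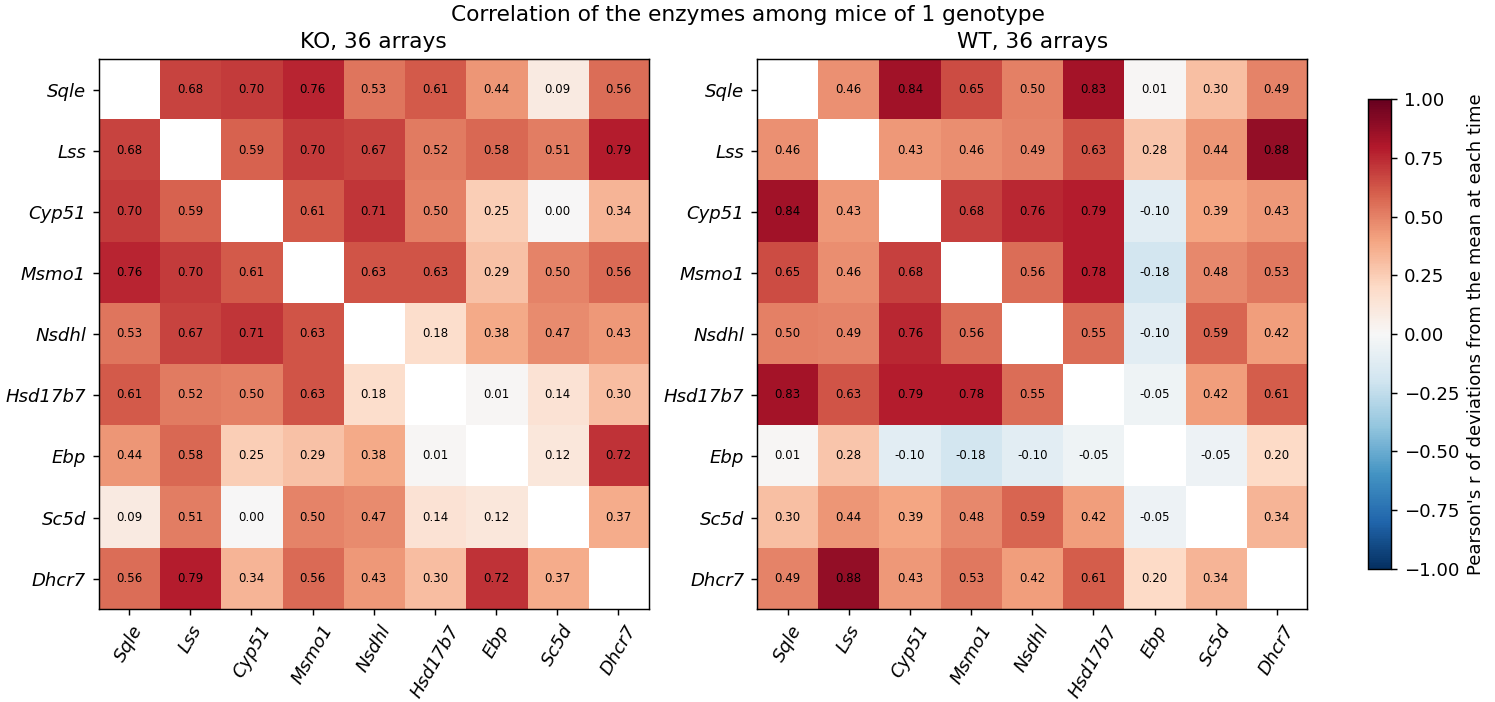
Pearson's r between the enzymes (rows and columns, pathway order) of the deviations of single arrays from the mean of their time, in KO (left, 36 arrays) and WT (right, 36 arrays). *Lss* with *Dhcr7* is the reddest cell in both (0.79 in KO and 0.88 in WT), and *Ebp* is pale in WT.

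The enzymes on either side of the pathway were read from fixed lists. Of 9 genes from acetyl-CoA to squalene 5 were measured, and 5 of 5 were higher in KO (median difference 0.80, background 5.93% of genes). *Hmgcs1*, which makes HMG-CoA, averaged 13.58 ± 0.43 in KO and 12.03 ± 0.69 in WT (SD, n = 36 each, limma adjusted p = 7.77e-16). *Fdps*, which makes farnesyl diphosphate, averaged 12.53 ± 0.26 in KO and 11.21 ± 0.43 in WT (limma adjusted p = 5.90e-23). *Pmvk*, *Mvd* and *Idi1* differed by 0.65, 0.80 and 0.55. Of the sterol reductases that act between *Cyp51* and *Msmo1*, *Tm7sf2* rose by 0.46 (limma adjusted p = 5.01e-18) and *Lbr*, which is also a receptor of the nuclear lamina, differed by -0.017 (limma adjusted p = 0.909).

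Of 8 measured genes of SREBP-2 control and sterol uptake, 2 were higher in KO and 0 lower (median 0.029), against 5.93% of all genes higher and 6.38% lower. *Srebf2*, which encodes SREBP-2, rose by 0.27 (limma adjusted p = 2.69e-10), and *Insig1*, which holds SREBP in the endoplasmic reticulum and is itself a target, rose by 0.24 (limma adjusted p = 0.0107). The escort *Scap* differed by 0.022 and *Insig2* by 0.0021. Of 7 measured genes of sterol use, 2 were higher, both bile acid enzymes: *Cyp7a1*, the rate-limiting one, by 0.80 (limma adjusted p = 0.000721), and *Cyp7b1*, of the alternative route, by 0.93 (limma adjusted p = 5.75e-13). Of 11 measured core clock genes 0 passed in limma in either direction (lowest adjusted p 0.154 for *Cry1*, whose probe lay at percentile 4.50 of genes). This test had no term for time, so the daily swing of rhythmic genes widened its error (SE 0.44 for *Dbp*, 0.21 for *Per2*). It says little about shifts in the level of clock genes. Of the 11, 8 were rhythmic in KO and 9 in WT, against 13.7% of all genes in KO and 15.8% in WT.

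Of the markers of liver cell types, some were lower in KO and 0 were higher by the same test, against 6.38% of all genes lower and 5.93% higher. Of 9 endothelial markers 4 were lower in KO (*Oit3* by -0.22, *Clec4g* by -0.19, *Pecam1* by -0.12, *Cdh5* by -0.066), with summed signals of 2266 to 3066 in KO and 2522 to 4291 in WT. Of 7 stellate cell markers 2 were lower (sums 2804 to 4008 in KO and 3233 to 4824 in WT), of 6 lymphocyte markers 1 (sums 367 to 401 in KO and 364 to 408 in WT), and of 7 hepatocyte markers 3 (sums 36036 to 45275 in KO and 37837 to 48618 in WT). Of 8 Kupffer cell and macrophage markers and of 4 cholangiocyte markers 0 passed (sums 797 to 1808 in KO and 787 to 3552 in WT, and 229 to 257 in KO and 233 to 273 in WT). Their part in the differences of the enzymes was not tested.

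Outside the lists, the 10 genes whose 24 group means ran most like the average of the 9 enzymes were *Mtap*, *Rdh11*, *Mmab*, *Dhrs7b*, *Eloc*, *Clstn3*, *Entpd5*, *H4c8*, *Cox15* and *Gstp2*, with Pearson's r of 0.93 to 0.96. The genotype difference makes up much of this likeness, since with genotype means removed r was 0.52 for *Mtap*, 0.78 for the retinol dehydrogenase *Rdh11* and 0.74 for the cobalamin enzyme *Mmab*. *Mtap* lies on chromosome 4, as do *Scp2* and the bile acid enzyme *Cyp7a1* named above, and none of the 9 enzymes does. *Rdh11* averaged 8.66 ± 0.32 in KO and 7.58 ± 0.45 in WT (SD, n = 36 each).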

How the data were processed

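Liver RNA of 72 mice (36 KO, 36 WT) was labelled with biotin and hybridised to Illumina arrays. The authors deposited the intensity of each probe without normalization or background subtraction, and, in a separate table, normalized log2 values, for which the submitters' notes name Partek, with settings and version not given in the sources used here. The intensities were corrected with normexp (offset 50), quantile normalized and taken as log2 with limma 3.58.1 in R 4.3.3. Probes without a gene name (1719 of 25697) were left out, and the brightest probe stood for a gene. Signal columns name genotype, time and array set but no replicate number. Genotypes were compared with limma across 16593 genes over all times and within a model of 24 groups, rhythms with an F-test on a cosine and a sine of 24 h, p-values were adjusted by Benjamini-Hochberg (threshold 0.05), and pathway steps and correlations were tested by permutation in NumPy 2.4.6. Fits were tested on simulated data. Alternatives were the authors' table, no background correction, median scaling, a filter on dim probes, the mean of probes, each set left out, set or replicate number as a block, time as a factor, a second harmonic, time means, a threshold of 0.01 and, chosen after seeing the data, omission of the WT array at ZT12 of set 6 and all alternatives of the permutation tests. The members and lists were chosen with earlier results of these data known. Named outside the lists were the 10 genes most like the mean of the z-scored members, among genes above the 25th percentile.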

Additional observations from a re-analysis of the deposited data

How the results depend on the processing

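The 9 members stayed higher in KO in all alternatives except *Sc5d*, whose call was lost with median scaling (adjusted p = 0.0681), at a threshold of 0.01 and where stated above. Leaving out 1 set at a time gave 8 to 9 members higher over all times, 37 to 57 comparisons at single times (37 without KO set 4), 1 to 3 members rhythmic in KO (1 without KO set 4 or 5), 2 to 5 rhythmic in WT (2 without WT set 6 or 10, 3 without WT set 9), 4 to 7 unequal steps and 0 to 5 correlations (0 without KO set 4, 5 or 6). The count rhythmic in KO was 1 with median scaling, 1 at a threshold of 0.01, 0 on time means and 4 with a second harmonic, and the count rhythmic in WT was 3 at a threshold of 0.01 and 2 on time means, which hold 12 values. Median scaling gave 13 correlations. The cause of these changes was not tested, and the fits with sets left out or on time means also held fewer values. No member passed the test of interaction or of a rhythm difference in any alternative.

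Deviations of same-numbered KO and WT samples correlated by over 0.1 in 22 of 36 pairs (-0.14 to 0.37, median 0.14). Pairs with unlike numbers were not computed as a background, so these values cannot show whether same-numbered samples deviated together. The numbers were not taken to pair the animals. With the replicate block, on the authors' normalized values, 9 members were higher, 63 comparisons passed at single times, and 0 members passed the test of interaction and 0 that of a rhythm difference. Over all genes 2603 passed with the block and 2026 without it. Detection p-values were not used here, so that no probe could be called absent, and dim probes understate changes.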
